A study of Homo sapiens with 34 samples.

Results

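APS-LM was lateral mesoderm (LM) made from anterior primitive streak (APS), and MPS-LM was LM made by the standard route from mid primitive streak (MPS). The comparison held 4 of the 34 libraries of the series, 2 of APS-LM and 2 of MPS-LM, chosen by their labels alone, and took in all 17895 genes that passed a filter on low counts out of 37951 listed. All cells were wild-type ESI-017, an established human embryonic stem cell line, differentiated for 48 h in E6, a minimal medium. During the first 24 h APS cells received activin A at 30 ng/ml, bFGF at 20 ng/ml and 4 µM CHIR99021, an inhibitor of GSK3 that activates WNT signaling. MPS cells received the same activin A and bFGF with 40 ng/ml BMP4 and 6 µM CHIR99021, so the groups differed both in BMP4 and in the CHIR99021 dose, and those differences cannot be told apart. On the second day both groups received the LM medium, which held 30 ng/ml BMP4, 1 µM A-8301, an inhibitor of activin and TGFβ receptors, and 4 µM IWP2, an inhibitor of WNT secretion. The question was which genes still carried the first day's treatment after a shared second day.

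Libraries of 6 other conditions were read beside these 4, each with 2 replicates. APS-24h and MPS-24h were cells at the end of the first day. APS-PM and MPS-PM were the same streak cells given paraxial mesoderm (PM) medium on day 2, which held bFGF at 20 ng/ml, the BMP receptor inhibitor LDN-193189 at 250 nM and A-8301 at 1 µM per the labels. The study's text also names CHIR99021 in the PM treatment of an imaging experiment, so whether PM medium held it here is not known, and its part in the differences between LM and PM was not tested. DE(a)-LM and PPS-LM received the LM medium after day 1 treatments on either side of APS and MPS. DE(a), the first step of an endoderm protocol, was activin A at 100 ng/ml with CHIR99021 at 2 µM, and PPS, posterior primitive streak, had no activin A and held BMP4 at 40 ng/ml, bFGF at 20 ng/ml and CHIR99021 at 6 µM. All cells were of 1 line in culture, with no embryo around it, and the labels do not say whether the replicates were separate cultures, so the p-values measure only the spread between these samples.

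In the embryo the primitive streak is where cells leave the epithelium to form mesoderm and endoderm, and its anterior end sees more NODAL while its posterior end sees more BMP. Lateral mesoderm gives rise to the heart, the body wall, the limb mesenchyme and part of the blood and vessel lineages, and it depends on BMP signaling and on transcription factors such as HAND1, FOXF1 and GATA4. HOX genes lie in 4 clusters and mark position along the head-to-tail axis, being switched on in the order in which they lie in each cluster. CDX factors and WNT signals are known to activate them, and retinoic acid, which CYP26A1 breaks down, acts on them too.

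Depth was similar in the compared libraries, with 19393449 and 18633560 estimated counts in APS-LM and 17192526 and 21076327 in MPS-LM, against 15522780 to 23439799 over all 34 libraries. Levels are given below as CPM, a gene's estimated counts scaled to a fixed library total, and 3 counts correspond to 0.155 and 0.161 CPM in APS-LM and 0.174 and 0.142 CPM in MPS-LM, limits that cover counting error only. CPM was not divided by gene length, so levels are compared between conditions for 1 gene or 1 summed list and never between genes. Where a gene makes up most of a sum, that is a share of counts and not of molecules. Messenger RNAs of the mitochondrial genome summed to 89630 and 74430 CPM in APS-LM and to 54830 and 53860 CPM in MPS-LM. For all 13 both APS-LM libraries lay above both MPS-LM libraries, with a median log2 fold change of 0.49. The share of all genes with libraries so separated was not counted, here or for the lists below. Such counts therefore have no background beside them. None of the 13 was called by edgeR or DESeq2 or had an unadjusted p under 0.05 (0 of 13), and their part in the other differences was not tested. In these bulk samples fewer cells of a type and less RNA per cell cannot be told apart.

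A total of 679 genes differed between APS-LM and MPS-LM, 3.79% of those tested, at an adjusted p of 0.05 by edgeR's quasi-likelihood test, and such genes are named called genes below. Of these, 366 were higher in APS-LM (2.05%) and 313 were lower (1.75%). The log2 fold change is that of APS-LM over MPS-LM throughout, its median size among called genes was 1.33, and 450 called genes reached 1 or more. The median over all genes tested was 0.026. Without APS-LM replicate 1 the count fell to 153 genes and without MPS-LM replicate 2 to 159, while leaving out the other library of either group gave 917 and 696. At an unadjusted p under 0.05 there were 3165 genes. The plot of all genes shows called genes on both sides over most of the range of expression.

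**Figure D1:**
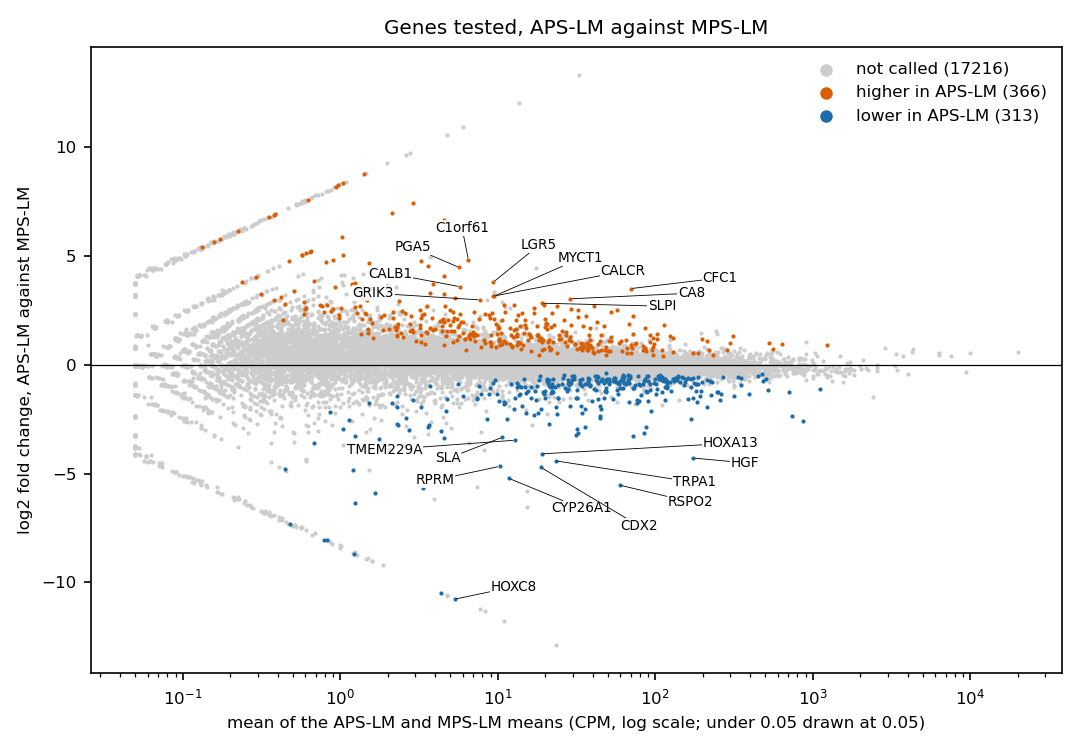
Each point is 1 of 17895 genes, with the mean level of the 2 groups on the x axis (CPM, log scale) and the log2 fold change of APS-LM over MPS-LM on the y axis. The 366 genes called higher and the 313 called lower are coloured, the other 17216 are grey, and the straight lines of points at the edges are genes at 0 in 1 group, whose fitted value is no measure of size.

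On a list of 22 transcription factors of lateral mesoderm, 2 were called after the shared LM medium, 9.09% beside 3.79% of all genes. Both were lower in APS-LM, where 1.75% of all genes were. None was called higher by edgeR or DESeq2 (1 at an unadjusted p under 0.05). The median log2 fold change of the list was −0.10 beside 0.026 for all genes. Against APS-PM, which had the same first day, 18 of the 22 were higher in APS-LM, where 3906 of all genes (21.8%) were called, 1978 higher (11.1%) and 1928 lower (10.8%). The list summed to 1832 and 2849 CPM in APS-LM, 3158 and 3717 CPM in MPS-LM and 221.7 and 209.7 CPM in APS-PM. Both APS-LM libraries were below both MPS-LM libraries in this sum, and both were far above APS-PM. HAND1, given below, made up a large part of the sum in both LM groups. Taken singly, members were split, with both APS-LM libraries below both MPS-LM libraries for 7 and above for 5.

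HAND1, a marker of this lineage and a factor of the heart and extra-embryonic mesoderm, was at 806 and 1528 CPM in APS-LM and 1790 and 2127 CPM in MPS-LM. Its log2 fold change of −0.79 did not pass (adjusted p = 0.412), although the groups did not overlap, and in APS-PM it stood at 3.71 and 2.35 CPM. HAND2, its partner in heart and limb, was at 57.9 and 64.6 CPM against 56.8 and 75.9 CPM, and the ranges overlapped. GATA2, a factor of blood and vessel progenitors, was at 316.6 and 390.3 CPM in APS-LM and 459.4 and 343.9 CPM in MPS-LM, again overlapping. GATA4, a heart factor, was at 77.2 and 105 CPM against 47.0 and 101 CPM, and ISL1, of the second heart field, at 28.1 and 26.5 CPM against 10.8 and 27.5 CPM. None of these 5 was called.

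HOPX, a homeodomain-only protein of the early heart, was among the called members of the list. It was at 0.362 and 1.29 CPM in APS-LM against 10.1 and 6.64 CPM in MPS-LM (log2 fold change −3.35, adjusted p = 0.0345 by edgeR), and both APS-LM libraries lay below both MPS-LM libraries. It was called in 7 of the 10 alternatives and not without APS-LM replicate 1, MPS-LM replicate 1 or MPS-LM replicate 2. PRRX1, a limb and body wall factor, was at 2.22 and 6.45 CPM against 21.4 and 36.2 CPM and missed the threshold (adjusted p = 0.0715).

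**Figure D2:**
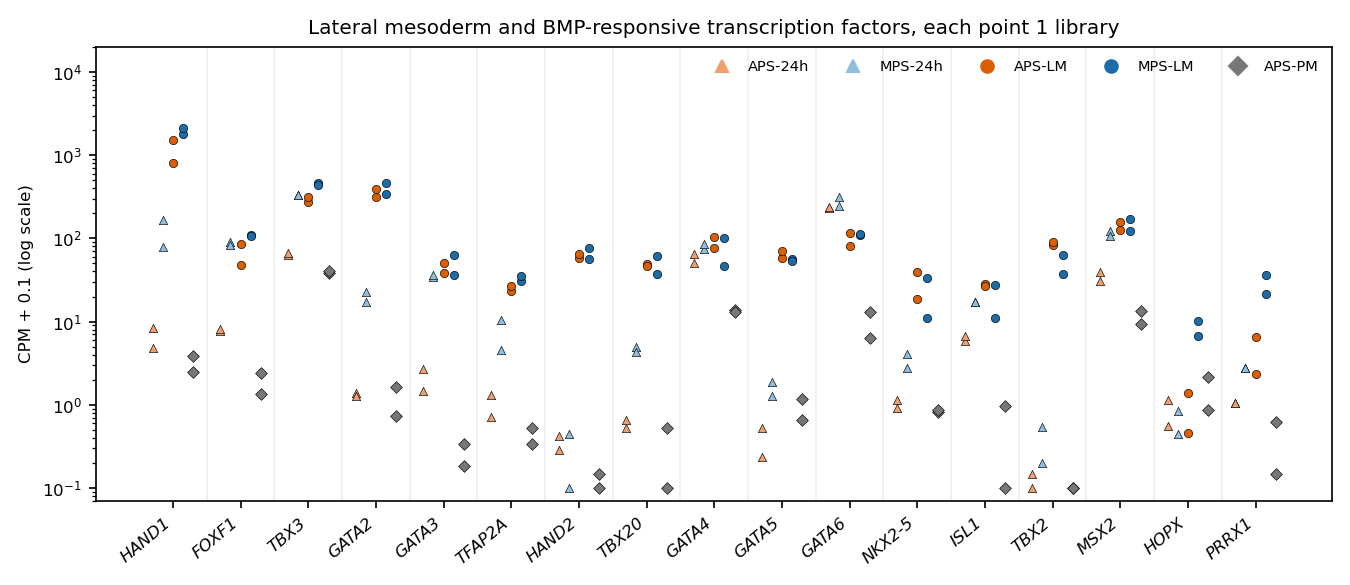
Levels of 17 lateral mesoderm and BMP-responsive transcription factors on a log axis (CPM + 0.1), with 1 point per library of APS-24h, MPS-24h, APS-LM, MPS-LM and APS-PM. HAND1, GATA2, GATA3 and TBX3 are far apart between APS-24h and MPS-24h and close together in the 2 LM groups, while HOPX is apart in LM.

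Several of these factors had differed widely at 24 h, before the LM medium. Between APS-24h and MPS-24h 524 genes were called (2.93%), 185 higher in APS-24h (1.03%) and 339 lower (1.89%), and 6 of the 22 lateral factors were among the lower ones. Leaving out any 1 of the 4 libraries left 225 to 263 genes. HAND1 had been at 8.34 and 4.72 CPM in APS-24h against 164.4 and 79.6 CPM in MPS-24h, a log2 fold change of −4.25. GATA3, an amnion and trophoblast factor also found in lateral mesoderm, had been at 2.61 and 1.37 CPM against 34.0 and 36.0 CPM and reached 38.7 and 50.9 CPM in APS-LM and 36.2 and 63.1 CPM in MPS-LM. The groups were separate at 24 h and overlapped at 48 h. TBX3, a T-box repressor, had been at 62.2 and 66.0 CPM against 335.1 and 330.1 CPM and was then at 276.9 and 310.9 CPM against 462 and 435.9 CPM (adjusted p = 0.139). The difference between the differences, 48 h less 24 h, was itself called for 3 of the 22 lateral factors, 2 positive and 1 negative, where 1.11% and 0.559% of all genes were. The positive ones were HAND1 (adjusted p = 0.0107 by edgeR) and TBX3 (0.0079), each toward a smaller gap at 48 h. GATA2 (0.000406) and GATA3 (0.00053), which are on the list of amnion and surface epithelium markers, also were called toward a smaller gap.

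The difference between times was called for 5 of 18 BMP target and feedback genes (27.8%), all toward APS-LM, where 1.11% of all genes were called in that direction. None was called higher by edgeR or DESeq2 (4 at an unadjusted p under 0.05) and 1 lower at 48 h, with a median log2 fold change of 0.16, whereas 9 were lower at 24 h (1.89% of all genes were), when only MPS cells had received BMP4. Their sum was 2817 and 3255 CPM in APS-LM and 2383 and 2912 CPM in MPS-LM, with overlapping ranges, against 824 and 705 CPM in APS-24h and 1761 and 1736 CPM in MPS-24h. ID1, an inhibitor of differentiation factors that BMP induces, was at 148 and 149 CPM in APS-LM and 85.9 and 108 CPM in MPS-LM (adjusted p = 0.576). BAMBI, a decoy receptor, was at 528 and 687 CPM against 622 and 769 CPM. SMAD9, one of the SMADs that BMP receptors activate, was the called member, at 62.5 and 56.2 CPM against 110.8 and 172.9 CPM (log2 fold change −1.32), and it lost its call without MPS-LM replicate 2. Among 24 ligands and receptors of the BMP, TGFβ and activin families, 12.5% were called, beside 3.79% of all genes. BMP5 was higher (log2 fold change 2.05, adjusted p = 0.0499 by edgeR), at 28.2 and 19.9 CPM against 6.41 and 4.8 CPM. TGFBR3, a co-receptor also named betaglycan, was lower at 21.8 and 44.9 CPM against 80.5 and 83.3 CPM, and BMPR2, the type II BMP receptor, at 63.1 and 71.8 CPM against 95.2 and 140 CPM. TGFBR3 and BMPR2 were not called without APS-LM replicate 1 or without MPS-LM replicate 2, and BMP5 was not called without any 1 of the 4 libraries.

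HOX genes had the largest median difference of the lists examined. Of 39 listed, 37 were tested, and 12 were lower in APS-LM and none higher (0 also by DESeq2 and at an unadjusted p under 0.05), 32.4% beside 3.79% of all genes. Their median log2 fold change was −4.14, and 34 of the 37 values were negative. It was −2.70 over 31 genes when 10 genes at 0 in a group were set to the bound that 3 counts allow. Genes at 0 in a group that did not pass that floor in the other were left out of it. Of the 39 genes, 16 were at 0 in both APS-LM libraries and 4 in both MPS-LM libraries. Both APS-LM libraries lay below both MPS-LM libraries for 28 of the 37, with no share of all genes counted beside it. The count of lower genes fell to 5 without APS-LM replicate 1 or without MPS-LM replicate 2, with HOXA2, HOXA13, HOXC6 and HOXC8 among them each time. HOXA13, HOXC6 and HOXC8 were called in each of the 10 alternatives.

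The 4 clusters did not behave alike. HOXA genes summed to 2.94 and 2.42 CPM in APS-LM against 30.9 and 78.2 CPM in MPS-LM, and 8 of 11 were lower with none higher. HOXC genes summed to 0.825 and 0.322 CPM against 15.2 and 42.0 CPM, with 3 of 7 tested called. The HOXD genes were low, at 0.309 and 0.322 CPM against 1.92 and 8.12 CPM, and HOXD13 was the 1 called. HOXB genes summed to 400 and 555 CPM against 748 and 845 CPM and none of 10 was called by edgeR or DESeq2 (4 at an unadjusted p under 0.05, all lower), with a median log2 fold change of −0.61. All 4 sums were lower in both APS-LM libraries, and the gap was smaller in proportion for HOXB than for HOXA or HOXC.

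At 24 h the HOXB cluster had been among the most different. Its sum was 11.1 and 15.1 CPM in APS-24h against 258 and 232 CPM in MPS-24h, and 9 of 10 genes were lower. HOXB6, in the middle of the cluster, was at 0.662 and 0.824 CPM against 71.4 and 69.3 CPM at 24 h, and at 64.7 and 113.4 CPM against 125.7 and 160.9 CPM at 48 h. HOXB4 was at 0.237 and 0.687 CPM against 16.48 and 11.95 CPM, and then at 23.9 and 25.0 CPM against 33.0 and 17.7 CPM. Groups that had not overlapped for HOXB4 thus overlapped a day later. The difference between times was called for 6 HOXB genes, HOXB1 to HOXB6, each toward a smaller gap, with log2 values from 2.75 for HOXB3 to 5.84 for HOXB6. The HOXA sum moved the other way in APS cells, from 28.7 and 27.8 CPM at 24 h to 2.94 and 2.42 CPM, and also fell from 175 and 148 CPM to 30.9 and 78.2 CPM in MPS cells.

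The HOXA genes called lower lay in runs of neighbours on chromosome 7 (GRCh38). HOXA2 and HOXA3 spanned 27100354 to 27152583, and HOXA9, HOXA10, HOXA11 and HOXA13 spanned 27162438 to 27200091. HOXA13, the last gene of the cluster and a factor of the hindgut and distal limb, was at 2.37 and 2.04 CPM in APS-LM against 20.8 and 50.9 CPM in MPS-LM (log2 fold change −4.09, SE 0.61, adjusted p = 0.000517), and it made up most of what remained of the HOXA sum. HOXA10 was at 0 in both APS-LM libraries against 0.749 and 4.17 CPM, at least 15.3-fold lower against the floor of a library. On chromosome 12, HOXC8 was at 0 and 0 against 5.09 and 16.2 CPM, at least 66.1-fold lower (adjusted p = 0.000312), and HOXC6 at 0 and 0 against 5.38 and 11.96 CPM, at least 53.9-fold lower. Both genes also were at or near 0 at 24 h in both groups, so their difference appeared on day 2. At a level of 1 CPM or more, 10 and 11 HOX genes were found in the APS-LM libraries, 18 and 26 in MPS-LM, 8 and 10 in DE(a)-LM and 35 and 36 in PPS-LM.

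**Figure D3:**
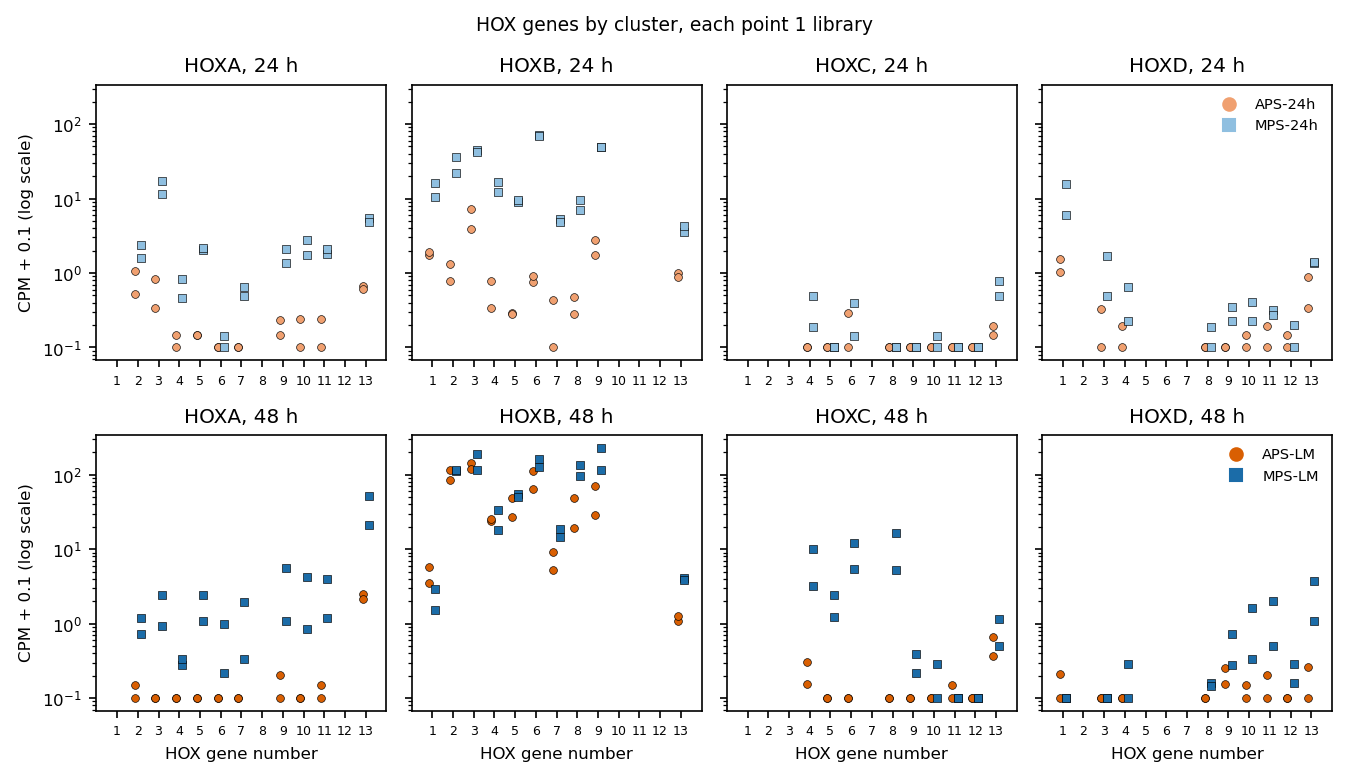
Levels of the HOX genes reported here on a log axis (CPM + 0.1) by cluster and by gene number along the cluster, with 1 point per library at 24 h (APS-24h, MPS-24h) and at 48 h (APS-LM, MPS-LM). APS and MPS are far apart for HOXB at 24 h and close at 48 h, whereas the gap in HOXA and HOXC is wide at 48 h.

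CDX2, a homeobox factor of the posterior body and of trophoblast that activates HOX genes, was at 0.722 and 2.15 CPM in APS-LM against 29.0 and 43.5 CPM in MPS-LM. The MPS-LM libraries were far above both APS-LM libraries (log2 fold change −4.71, SE 0.53, adjusted p = 2.60e-05). It had also been lower at 24 h, at 16.5 and 31.8 CPM against 151 and 175.6 CPM. In PM medium it was at 166.1 and 194.4 CPM after APS and 179.4 and 243.3 CPM after MPS, so the groups that started from the same streak cells overlapped there, and the difference between media was called (−4.47, adjusted p = 0.00223). Its relatives CDX4, at 0.103 and 0.107 CPM against 0.582 and 1.95 CPM (log2 fold change −3.61, adjusted p = 0.0326), and CDX1, at 0.670 and 0.698 CPM against 1.63 and 1.76 CPM (adjusted p = 0.162), were low in both LM groups. MEIS1, a cofactor of HOX proteins, went the other way at 32.2 and 23.1 CPM against 6.48 and 8.92 CPM (log2 fold change 1.78). Those called were 30% of the list, beside 3.79% of all genes. The rest of the 10 CDX, MEIS and PBX genes were not called, and MEIS1 was not called without APS-LM replicate 1 or either MPS-LM library, nor CDX4 without APS-LM replicate 1, APS-LM replicate 2 or MPS-LM replicate 2.

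The promoter windows below run from 250 bases before a RefSeq start site to 50 bases after it (GRCh38.p14) and are shown for 3 genes on which the results turn, 1 with a large difference in WNT-linked posterior identity (CDX2), 1 whose difference turned over between days (CYP26A1) and 1 of a pair that shares its promoter (COL4A2). Capitals mark letters that match a motif on either strand: CTTTGA, the core of the TCF/LEF site through which WNT acts, AGTTCA, a retinoic acid receptor site, GGCGCC, a GC-rich SMAD1/5 site and TATAAA, the TATA box. A match is a description of the letters only.
CDX2 (chr13:27969266-27969565, minus strand): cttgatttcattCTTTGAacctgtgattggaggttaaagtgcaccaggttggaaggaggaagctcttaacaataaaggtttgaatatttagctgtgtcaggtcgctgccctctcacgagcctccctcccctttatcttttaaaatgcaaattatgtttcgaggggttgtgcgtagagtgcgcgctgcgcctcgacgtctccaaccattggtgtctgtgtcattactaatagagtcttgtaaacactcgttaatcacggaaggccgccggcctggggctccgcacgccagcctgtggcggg
CYP26A1 (chr10:93073643-93073942, plus strand): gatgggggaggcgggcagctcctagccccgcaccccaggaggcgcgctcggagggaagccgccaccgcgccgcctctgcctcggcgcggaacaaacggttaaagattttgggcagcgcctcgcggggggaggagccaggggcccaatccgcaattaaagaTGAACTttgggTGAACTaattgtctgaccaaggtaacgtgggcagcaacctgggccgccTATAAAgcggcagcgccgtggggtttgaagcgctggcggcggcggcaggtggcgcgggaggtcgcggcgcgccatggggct
COL4A2 (chr13:110307034-110307333, plus strand): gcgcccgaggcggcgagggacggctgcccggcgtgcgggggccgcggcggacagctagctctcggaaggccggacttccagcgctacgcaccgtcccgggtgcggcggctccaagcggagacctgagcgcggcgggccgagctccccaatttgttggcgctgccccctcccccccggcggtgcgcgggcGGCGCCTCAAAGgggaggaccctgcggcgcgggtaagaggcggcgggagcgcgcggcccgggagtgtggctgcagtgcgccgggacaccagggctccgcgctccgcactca
The CDX2 window held 1 CTTTGA, which 12.9% of all 34943 windows of this length held. The CYP26A1 window held 1 TATAAA (11.6% of windows) and 2 copies of AGTTCA (10.5% of windows held one or more). The copies were read on the minus strand and 5 bases apart, an arrangement found in 4 windows (0.0114%). Only a CYP26A1 window with this pair was kept for printing, so the presence of the pair there was fixed by choice. The COL4A2 window held 1 GGCGCC (19.2% of windows) directly followed by TCAAAG, the reverse of CTTTGA.

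CYP26A1, the enzyme that clears retinoic acid (chromosome 10, 93073475 to 93077885), was called in opposite directions on the 2 days. At 24 h it was at 115.9 and 52.1 CPM in APS-24h against 5.28 and 4.32 CPM in MPS-24h (log2 fold change 4.11, adjusted p = 0.000258). At 48 h it was at 0.206 and 1.07 CPM in APS-LM against 19.5 and 26.5 CPM in MPS-LM (log2 fold change −5.22, SE 0.75, adjusted p = 0.000266). The group that had been higher on day 1 was thus lower on day 2, with no overlap either time, and the difference between times was −9.33 (SE 0.96, adjusted p = 2.22e-05). No other of the 15 retinoic acid genes tested was called at 48 h (6.67% called, beside 3.79% of all genes).

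Secreted signals and their targets included several of the largest falls. RSPO2, a secreted amplifier of WNT signaling, was at 1.96 and 3.22 CPM in APS-LM against 118.8 and 113.5 CPM in MPS-LM. The level was 46.1-fold lower in APS-LM (−5.53 on the log2 scale, SE 0.54, adjusted p = 2.60e-05). HGF, the ligand of the MET receptor made by mesenchyme, was at 14.2 and 21.5 CPM against 152.8 and 509.2 CPM (log2 fold change −4.28, SE 0.60), and the MPS-LM libraries differed widely from each other but lay above both APS-LM libraries. WNT5B was lower at 6.75 and 18.2 CPM against 37.2 and 75.8 CPM (log2 fold change −2.23, adjusted p = 0.00332), and WNT2B was higher at 9.75 and 4.27 CPM against 1.89 and 1.36 CPM (2.03, adjusted p = 0.0120). These were the called genes among 17 WNT ligands and R-spondins tested, and WNT5B and WNT2B lost their calls without APS-LM replicate 1 or without MPS-LM replicate 2. Calls were 17.6% of those ligands and R-spondins. Of 20 WNT target genes 1 was called higher and 1 lower, 10% beside 3.79% of all genes, with a median log2 fold change of −0.04. Their sum was lower in both APS-LM libraries, at 661.5 and 810.5 CPM against 937.9 and 968 CPM in MPS-LM. Both APS-LM libraries lay below both MPS-LM libraries for 5 of these genes and above for 7, again without a share of all genes. AXIN2, the feedback target used most often as a readout, was at 17.6 and 19.2 CPM against 20.6 and 17.3 CPM with overlapping groups. CCND1, a cyclin that drives entry into S phase, was the lower one at 127.4 and 176.7 CPM against 306.6 and 381.8 CPM (log2 fold change −1.23, adjusted p = 0.000161), and LGR5, a receptor for R-spondins, the higher one.

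The type IV collagen pair of the basement membrane was lower in APS-LM. COL4A1 was at 196.8 and 319.3 CPM against 1350 and 1605 CPM (log2 fold change −2.56, SE 0.25, adjusted p = 4.00e-06). COL4A2 was at 188.6 and 302 CPM against 1163 and 1291 CPM (−2.36, SE 0.24, adjusted p = 7.36e-06). The genes lie head to head on chromosome 13 with start sites 127 bases apart, so their windows share 226 bases of the sequence printed above. LAMB1, a laminin chain of the same membrane, was at 298.1 and 367.3 CPM against 747.4 and 670.2 CPM (log2 fold change −1.13). All 3 were called in all 10 alternatives, and they were the lower genes among 34 of collagen and matrix. At 24 h COL4A1 and COL4A2 had not been called, with log2 fold changes of −0.28 and −0.22, and the difference between times was called for both. Of the same list 5 genes were higher, namely COL1A2 and COL2A1, the fibrillar collagens of loose mesenchyme and cartilage, COL9A2, COL13A1 and HAS2, the hyaluronan synthase of the heart cushions. Calls in either direction were 23.5% of the list, beside 3.79% of all genes. COL2A1 was at 44.8 and 40.3 CPM against 10.2 and 9.40 CPM (log2 fold change 2.07) and HAS2 at 480 and 418 CPM against 167 and 175 CPM (1.34). The 5 genes numbered 3 without APS-LM replicate 1 and 0 without MPS-LM replicate 2.

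The 10 largest falls by a rule on size, level and separation of the libraries were HOXC8, RSPO2, CYP26A1, CDX2, RPRM, TRPA1, HGF, HOXA13, TMEM229A and SLA. RPRM, a p53 target that arrests the cell cycle, was at 0.928 and 0.698 CPM in APS-LM against 12.03 and 27.5 CPM in MPS-LM (log2 fold change −4.66, adjusted p = 0.000663). TRPA1, an ion channel of sensory neurons, was at 1.76 and 2.63 CPM against 20.9 and 68.0 CPM (−4.41, adjusted p = 8.14e-06). TMEM229A, a membrane protein, was at 1.598 and 2.81 CPM against 21.6 and 25.4 CPM (−3.46, adjusted p = 0.000131), and SLA, an adaptor of receptor signaling in lymphocytes, at 0.980 and 2.95 CPM against 23.4 and 15.6 CPM (−3.33, adjusted p = 0.0243). All 10 were low in both APS-LM libraries and above them in both MPS-LM libraries, which the rule required. SLA was not called without APS-LM replicate 1 (−2.73), MPS-LM replicate 1 (−3.07) or MPS-LM replicate 2 (−3.59), and the other 9 kept their calls.

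The 10 largest rises were C1orf61, PGA5, LGR5, CALB1, CFC1, MYCT1, CALCR, CA8, GRIK3 and SLPI. CFC1, the co-receptor CRYPTIC through which NODAL patterns left and right, was at 152 and 105 CPM in APS-LM against 14.4 and 7.55 CPM in MPS-LM (log2 fold change 3.51, SE 0.79, adjusted p = 0.0132), and reads of its near-identical copy CFC1B make the assignment uncertain. LGR5 was at 17.5 and 17.5 CPM against 2.27 and 0.285 CPM (3.81, SE 0.50, adjusted p = 0.000101). At 24 h it had been higher in MPS-24h, at 184.5 and 162.6 CPM against 108.3 and 126.1 CPM, without being called. CA8, a carbonic anhydrase relative that lacks enzyme activity, was at 57.6 and 46.0 CPM against 6.05 and 6.08 CPM (3.04, adjusted p = 7.16e-05). CALB1, a calcium-binding protein of neurons and kidney tubules, was at 13.3 and 8.04 CPM against 1.05 and 0.664 CPM (3.60, adjusted p = 7.77e-05). The APS-LM libraries of each were several times above the MPS-LM libraries.

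MYCT1, a gene of endothelial cells, was at 15.7 and 18.6 CPM in APS-LM against 1.63 and 2.04 CPM in MPS-LM (log2 fold change 3.16) and had already differed at 24 h, at 30.4 and 32.2 CPM against 3.52 and 4.60 CPM (2.93). CALCR, the calcitonin receptor, was at 16.2 and 17.5 CPM against 1.57 and 2.04 CPM (3.16), and at 80.9 and 85.5 CPM against 8.32 and 12.8 CPM at 24 h (2.96). These genes and CALB1 were called higher on both days. GRIK3, a kainate receptor subunit, was at 15.7 and 11.8 CPM against 1.92 and 1.42 CPM (2.99), and C1orf61, listed as a long non-coding RNA, at 20.0 and 5.21 CPM against 0.291 and 0.522 CPM (4.83). SLPI, a secreted inhibitor of leukocyte proteases, was at 24.0 and 42.9 CPM against 6.28 and 2.94 CPM (2.84, adjusted p = 0.0416), and PGA5, a pepsinogen with near-identical copies in PGA3 and PGA4, at 13 and 8.74 CPM against 0.807 and 0.163 CPM (4.49). PGA5 and CFC1 were not called without APS-LM replicate 1 (4.21 and 3.25) or MPS-LM replicate 2 (3.69 and 3.11). SLPI was not called without any 1 of the 4 libraries, with values from 2.28 to 3.40. By DESeq2 neither CFC1 (adjusted p = 0.12) nor SLPI (0.822) was called.

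**Figure D4:**
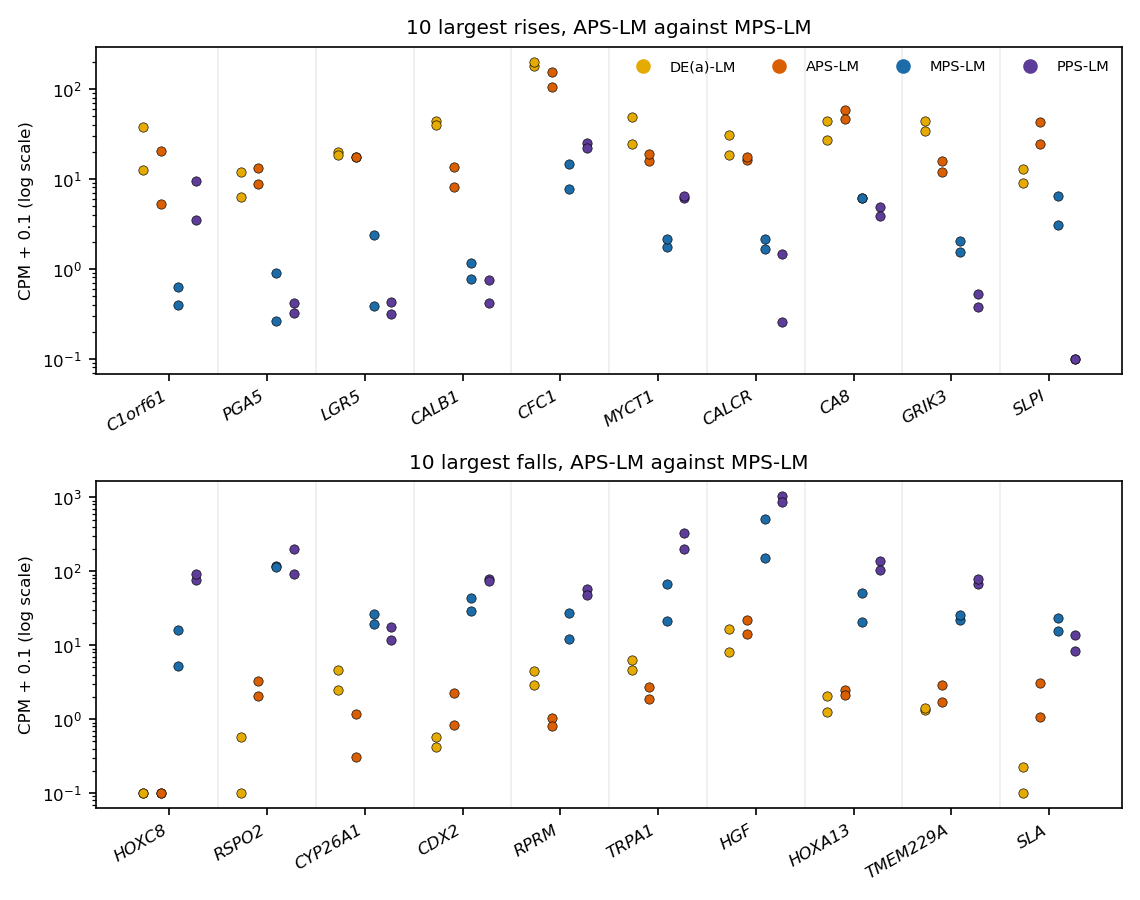
Levels on a log axis (CPM + 0.1) of the 10 genes that were highest in APS-LM relative to MPS-LM and the 10 that were lowest by the naming rule, with 1 point per library of DE(a)-LM, APS-LM, MPS-LM and PPS-LM. APS-LM and MPS-LM are separate for every gene, as the rule required, and DE(a)-LM lies mostly on the side of APS-LM and PPS-LM on the side of MPS-LM.

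Of 38 genes of guidance, ephrins and adhesion receptors, 8 were higher in APS-LM and 1 lower, 23.7% beside 3.79% of all genes. The list as a whole did not move that way. Its median log2 fold change was 0.018 beside 0.026 for all genes, and its sum was lower in both APS-LM libraries, at 3838 and 4917 CPM against 5199 and 5086 CPM. EPHB2, an ephrin receptor that repels cells on contact, was at 264 and 320 CPM in APS-LM against 139 and 128 CPM in MPS-LM (log2 fold change 1.09). FLRT2, an adhesion and repulsion ligand, was at 83.3 and 74.6 CPM against 38.7 and 38.0 CPM (0.99, adjusted p = 0.000787) and was called in all 10 alternatives. EPHA4 was at 26.1 and 20.6 CPM against 7.81 and 4.83 CPM (1.85), and CXCL12, the chemokine of CXCR4, at 15.7 and 12.9 CPM against 5.52 and 7.09 CPM (1.12). The others higher were EFNA5, EPHA1, SEMA3E and PLXNA4. EPHA7 was the lower one, at 95.2 and 163 CPM against 457 and 308 CPM (−1.59). The 8 numbered 2 without APS-LM replicate 1, 4 without MPS-LM replicate 1 and 1 without MPS-LM replicate 2, with FLRT2 among them each time. EPHB2 was not called without any 1 of the 4 libraries, and EPHA7 was called without APS-LM replicate 2 and not without any other 1.

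Some genes of the early neural plate were low in both groups but higher in APS-LM. Of 12 neural and neuromesodermal genes tested 4 were higher (33.3%, beside 2.05% of all genes) and none lower (0 also by DESeq2 and at an unadjusted p under 0.05). The 15 on the list summed to 89.2 and 59.7 CPM in APS-LM and 26.1 and 19.1 CPM in MPS-LM, and PAX6, SIX3 and SOX1 were at 0 in all 4 libraries. SOX2, a factor of both pluripotent and neural cells, was at 12.8 and 4.38 CPM against 0.640 and 0.333 CPM (log2 fold change 4.10). ZIC2 was at 10.8 and 5.31 CPM against 1.11 and 1.23 CPM (2.71), and ZIC5 was also called (2.35). All 4 called members were higher in both APS-LM libraries, and only ZIC5 was called without APS-LM replicate 1 or without MPS-LM replicate 2. Of 16 pluripotency genes tested, 18.8% were called, beside 3.79% of all genes. These genes summed to 2387 and 2613 CPM in APS-LM against 2536 and 2950 CPM in MPS-LM, with overlapping ranges. Among 16 of them SOX2 and L1TD1 were higher (2 of 16) and TDGF1, the NODAL co-receptor CRIPTO, lower at 31.4 and 46.8 CPM against 60.96 and 168 CPM, and none of these 3 was called without APS-LM replicate 1 or without MPS-LM replicate 2.

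Markers of other lineages were mixed. Definitive endoderm markers summed to 190.3 and 153.7 CPM in APS-LM and 147.2 and 152.2 CPM in MPS-LM. Their median log2 fold change was 1.19, beside 0.026 for all genes. At an unadjusted p under 0.05 by edgeR, 6 of 15 tested were higher and 1 lower. After adjustment 3 of the 15 were called higher (2.05% of all genes were). They included GSC, at 1.14 and 0.966 CPM against 0.058 and 0.191 CPM, and LHX1, at 1.26 and 2.61 CPM in APS-LM and at 0 in MPS-LM. SOX17, the defining endoderm factor, was at 5.06 and 0.806 CPM in APS-LM and at 0 in MPS-LM and was not called (adjusted p = 0.156). None of the 3 was called without MPS-LM replicate 1 or without MPS-LM replicate 2, LHX1 alone was called without APS-LM replicate 1, and it alone was not without APS-LM replicate 2. Paraxial mesoderm genes summed to 28.7 and 24.6 CPM in APS-LM, 38.6 and 42.5 CPM in MPS-LM and 2296 and 2134 CPM in APS-PM, and PAX9 was higher and CYP26A1 and PAX3 lower among 18. PAX9 and PAX3 were called with all 4 libraries or without APS-LM replicate 2, and not without any other 1. Amnion and surface epithelium markers summed to 5620 and 8213 CPM against 7444 and 8832 CPM, with 1 of 19 called (IGFBP3, log2 fold change −1.23, lost without any 1 of the 4 libraries), and 0 of 4 trophoblast genes tested was called by edgeR (1 by DESeq2, 2 at an unadjusted p under 0.05). The amnion call was 5.26% of its list and the paraxial calls were 16.7% of theirs, beside 3.79% of all genes. Of 7 intermediate mesoderm factors tested, LHX1 among them, 2 were called higher and 0 lower (28.6%). Of 16 streak and nascent mesoderm genes 1 was called lower and 0 higher by edgeR (2 higher by DESeq2), 6.25% beside 3.79% of all genes. They summed to 770.3 and 1403 CPM in APS-LM against 1655 and 1839 CPM in MPS-LM. Both APS-LM libraries lay below both MPS-LM libraries for 3 of the 16 and above for 6, again without a share of all genes. Among them TBXT, at 0.773 and 0.161 CPM against 0.291 and 0.569 CPM, and MIXL1, at 1.895 and 1.66 CPM against 0.814 and 2.76 CPM, had overlapping low levels.

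Heart, blood and vessel genes went both ways. Calls were 13.3% of 15 heart and smooth muscle genes and 21.7% of 23 blood and endothelial genes, beside 3.79% of all genes. TNNT2, cardiac troponin T, was at 24.6 and 20.3 CPM in APS-LM against 6.45 and 2.42 CPM in MPS-LM (log2 fold change 2.31, adjusted p = 0.0105), and HCN4, the pacemaker channel, at 90.02 and 120 CPM against 40.9 and 36.3 CPM (1.40, adjusted p = 0.00526). They were the 2 called of 15 heart and smooth muscle genes, and neither was called without MPS-LM replicate 2, TNNT2 not without APS-LM replicate 1 and HCN4 not without APS-LM replicate 2. ACTC1, cardiac actin, was at 834.4 and 1770 CPM against 3331 and 3676 CPM and did not pass (−1.46, adjusted p = 0.0705), and it carried most of the list's sum, which was 1383 and 2375 CPM against 3810 and 4096 CPM. Of 23 blood and endothelial genes 3 were higher, MYCT1, SOX18 and GYPE, and 2 lower. The lower ones were TEK, the angiopoietin receptor, at 34.9 and 72.9 CPM against 108 and 131 CPM (−1.19), and LMO2, a blood cofactor, at 0.722 and 1.23 CPM against 4.94 and 7.83 CPM (−2.76). CDH5 and TAL1, which define endothelial and blood progenitors, were at 0 in all 4 libraries. The list as a whole was not silent. It summed to 1053 and 1646 CPM in APS-LM and 764.2 and 1268 CPM in MPS-LM, with overlapping ranges, against 128.4 and 146.6 CPM in APS-PM. SOX18 was at 1.14 and 0.966 CPM against 0.236 and 0.095 CPM, and GYPE shares reads with its glycophorin relatives. Without MPS-LM replicate 2, MYCT1 was the only 1 of the 5 called, and TEK and LMO2 were also not called without APS-LM replicate 1, nor SOX18 without any 1 of the 4 libraries.

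Feedback genes of FGF signaling were mixed, with SPRY2 higher at 54.5 and 60.8 CPM in APS-LM against 24.9 and 33.1 CPM in MPS-LM (log2 fold change 0.94), SPRY1 lower at 2.63 and 2.81 CPM against 6.22 and 22.4 CPM (−2.48) and SPRED1 lower at 53.7 and 58.9 CPM against 79.6 and 127 CPM (−0.93), out of 16. Those called were 18.8% of the list, beside 3.79% of all genes. SPRY2 was not called without APS-LM replicate 2 or MPS-LM replicate 1, nor the other pair without APS-LM replicate 1 or MPS-LM replicate 2. Among 24 epithelial junction genes CDH3, P-cadherin, was at 74.4 and 65.7 CPM against 35.2 and 27.5 CPM (log2 fold change 1.12, adjusted p = 0.00198), and ESRP1, an epithelial splicing factor, at 12.3 and 8.27 CPM against 3.23 and 4.62 CPM (1.32). Both were higher in APS-LM, and calls were 8.33% of that list. CDH3 was not called without MPS-LM replicate 2, nor ESRP1 without APS-LM replicate 1 or MPS-LM replicate 1. Among 16 EMT and mesenchymal genes TGFBI was lower (−1.32), the only call (6.25%). It was not called without APS-LM replicate 1 or MPS-LM replicate 2. Calls in lists of housekeeping processes were near the 3.79% of all genes. They were 1 of 31 glycolysis genes (3.23%), 1 of 26 cholesterol genes (3.85%) and 1 of 28 cell cycle genes (CCND1, 3.57%). Both APS-LM libraries lay below both MPS-LM libraries for 15 of the 28 cell cycle genes and above for 1. No share of all genes was counted beside this, so no trend is read from it. Of 10 germ cell genes 0 were called by edgeR (1 by DESeq2, 2 at an unadjusted p under 0.05).

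Genes called at 24 h were read again at 48 h, in other libraries, although the same fit over all 34 libraries gave the spread for both. Of the 185 genes higher in APS-24h, 39 were higher in APS-LM (21.1%, against 2.05% of all genes) and 5 lower, and their median log2 fold change was 1.43 at 24 h and 0.54 at 48 h. Of the 339 genes lower in APS-24h, 35 were lower in APS-LM (10.3%, against 1.75% of all genes) and 14 higher, and their median went from −1.62 to −0.19. The medians at 24 h are of genes chosen by that value and so are large by choice. The change between times was itself called for 27 of the 185, all negative, and for 118 of the 339, all positive, a test that uses the 24 h libraries which chose the genes. Read the other way, 39 of the 366 genes higher at 48 h (10.7%) and 35 of the 313 lower (11.2%) had been called in the same direction at 24 h.

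The difference between times, 48 h less 24 h, was called for 298 genes (1.67%), 198 positive (1.11%) and 100 negative (0.559%). Without APS-LM replicate 1 it was called for 118 and without MPS-LM replicate 2 for 142. Under the naming rule the top positive values were those of HOXB6 (5.84), PCDH8 (5.74), HOXB5 (5.09) and HOXB4 (4.85). PCDH8, a protocadherin of the segmenting mesoderm, went from 1.51 and 0.870 CPM against 9.04 and 15.97 CPM to 7.02 and 8.48 CPM against 1.63 and 1.33 CPM (adjusted p = 0.0196). Its libraries changed sides between the days, although the difference at 48 h alone was not called (adjusted p = 0.155). The largest negative values were those of SLA, CYP26A1, TMEM229A and IL17D. IL17D, a cytokine, was at 2.49 and 4.68 CPM in APS-LM against 21.8 and 16.8 CPM in MPS-LM, and its difference between times was −3.80. SLA was at 0 in MPS-24h, so its value of −9.34 depends on the prior count and is no measure of size.

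**Figure D5:**
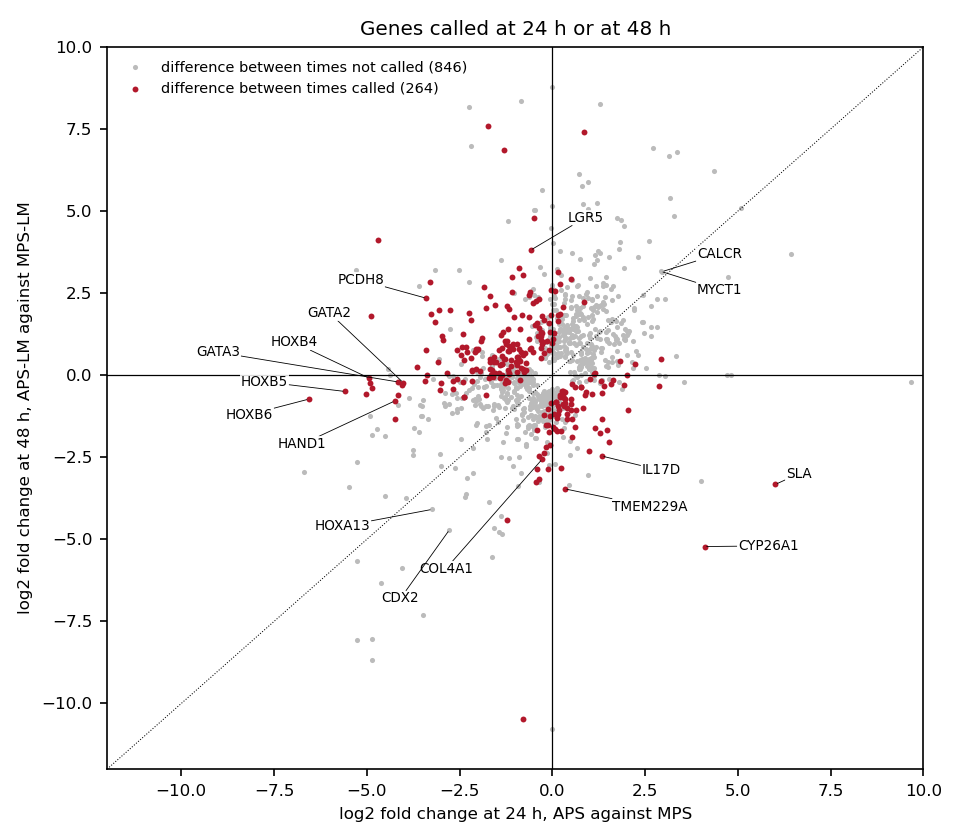
The log2 fold change of APS over MPS at 24 h (x axis) and at 48 h in LM medium (y axis) for genes called at either time, 1 point per gene. The 264 genes whose difference between times was called are coloured and the other 846 are grey, and CYP26A1 is far from the others in the corner of a rise at 24 h and a fall at 48 h.

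The same streak cells in PM medium gave a contrast for the second day. The difference between media, LM less PM, was called for 96 genes (0.536%), 47 positive (0.263%) and 49 negative (0.274%), and for 32 without APS-LM replicate 1 and 33 without MPS-LM replicate 2. TGFB2, a TGFβ ligand, was at 20.5 and 14.7 CPM in APS-LM against 21.0 and 17.0 CPM in MPS-LM, with overlapping groups, but at 0.239 and 0.384 CPM in APS-PM against 7.51 and 13.6 CPM in MPS-PM. GATA3 had the same form, at 0.239 and 0.085 CPM in APS-PM against 5.87 and 4.77 CPM in MPS-PM. Both genes thus had groups far apart in PM medium, and the differences between media were 4.896 and 4.81 on the log2 scale (adjusted p = 0.00295 for each). FREM1, an extracellular matrix protein, was higher in APS-LM at 139 and 130 CPM against 61.7 and 40.0 CPM and lower in APS-PM at 5.98 and 7.95 CPM against 25.1 and 26.8 CPM (3.27, adjusted p = 3.78e-05).

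Genes whose groups were apart in LM and overlapped in PM included URAD beside CDX2. URAD, an enzyme of uric acid breakdown, was at 0 in APS-LM against 0.650 and 1.28 CPM in MPS-LM, at least 6.0-fold lower, and at 13.2 and 21.2 CPM against 19.8 and 21.4 CPM in PM. SP8, a factor of the limb ridge and neural plate, was at 4.65 and 2.84 CPM in APS-LM against 0.058 and 0.332 CPM in MPS-LM, with a difference between media of 3.65. SLC39A2, a zinc transporter, was at 3.88 and 8.46 CPM against 53.2 and 60.3 CPM in LM and at 0 in MPS-PM, so no size is read from its difference between media.

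Day 1 treatments on either side of APS and MPS ordered most of the called genes the same way, in 4 other LM libraries. Those libraries were part of the fit that set the filter and the spread, so they are not independent of the calls. Of the 366 genes higher in APS-LM, both DE(a)-LM libraries were above both PPS-LM libraries in 326 (89.1%), against 33.3% of all genes tested, and under them in 7. Of the 313 lower, both DE(a)-LM libraries were under both PPS-LM libraries in 271 (86.6%), against 19.4% of all genes, and above them in 12. HGF was at 8.02 and 16.3 CPM in DE(a)-LM, 14.2 and 21.5 CPM in APS-LM, 152.8 and 509.2 CPM in MPS-LM and 1032 and 861.6 CPM in PPS-LM, and the HOXA sum at 1.15 and 1.96, 2.94 and 2.42, 30.9 and 78.2, and 399 and 348 CPM in the same order. APS-LM and DE(a)-LM overlapped for HGF. CFC1 was at 177.7 and 199.4 CPM in DE(a)-LM and 25.1 and 22.1 CPM in PPS-LM, and COL4A1 at 633.8 and 549.1 CPM and 1717 and 1605 CPM, so that for COL4A1 both APS-LM libraries were below DE(a)-LM.

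In overall expression the mean of MPS-LM and that of DE(a)-LM were about as far from that of APS-LM. The Euclidean distance between condition means of log2 levels over 14647 genes was 61.5 from APS-LM to MPS-LM, 64.8 to DE(a)-LM and 85.5 to PPS-LM, against 120.1 to APS-PM and 133.5 to APS-24h. Replicates of 1 condition were 54.9 apart in APS-LM and 53.9 apart in MPS-LM, a distance between single libraries and not between means. The ratio of the distance to MPS-LM over that to DE(a)-LM was 0.95 and ran from 0.90 to 0.98 in the alternatives, so the order of those 2 neighbours rested on a small margin. By single libraries, APS-LM replicate 1 was 70.4 and 88.4 from the MPS-LM libraries and 73.0 and 72.5 from the DE(a)-LM libraries, so no order held for it. APS-LM replicate 2 was 60.8 and 67.7 from MPS-LM and 84.3 and 72.8 from DE(a)-LM.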

How the data were processed

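The samples were 34 bulk poly(A) RNA libraries of ESI-017 cells, 17 conditions with 2 replicates each, grouped by their labels. The authors quantified the reads with Salmon 1.10.2 against GRCh38 with sequence and GC bias correction, summarised them to genes in R 4.4.2 and deposited estimated counts per gene, not normalized, in 2 tables that hold 1 replicate of each condition. Here the estimated counts were rounded to whole numbers, genes with low counts were removed (filterByExpr, leaving 17895 of 37951), and libraries were scaled by TMM. All 34 libraries were fitted with 1 mean per condition by edgeR 4.0.16 (glmQLFit, glmQLFTest, in R 4.3.3), since 2 libraries a condition hold too little to estimate a spread alone, and p-values were adjusted by Benjamini-Hochberg over all genes tested, with calls at 0.05. The common dispersion was 0.0611 on 17 residual degrees of freedom. DESeq2 1.42.0 was an alternative, as were RLE scaling, no filter, a replicate block, fits on fewer libraries and leaving out each library. CPM used each library's total of estimated counts. Distances used log2(CPM + 1). The depth of 15522780 to 23439799 estimated counts puts 3 counts at under 0.2 CPM in the 4 LM libraries compared. Gene positions were from GENCODE 44 and promoter windows from RefSeq (GRCh38.p14).

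Named genes were taken from called genes whose mean reached 10 CPM in APS-LM or MPS-LM and whose APS-LM libraries both lay on 1 side of both MPS-LM libraries, namely the top 10 in each direction by log2 fold change, 4 and 4 for the differences between times and between media, and members of gene lists beside their list's counts. A few genes that the rule or the lists take are counted but not reported here. The comparison, the lists and the rule were chosen with earlier results of these data known, so none of them is independent support. The fit was tested on counts simulated from its own means and dispersions with known changes in APS-LM. Of genes changed by a log2 fold of 1, 43% were recovered, and 84% of those changed by 2. Of 17695 unchanged genes 6 were called. Such counts hold no structure between replicates, so the test cannot show how far real libraries depart from the fit. A fold against a group at 0 is a lower bound from 3 counts of the library with the higher floor, and the fitted value of such a gene is no measure of size.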

Additional observations from a re-analysis of the deposited data

Results flagged for a closer look

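The difference between APS and MPS cells changed between 24 h and 48 h, by a test of that change itself, for 298 genes, and it differed between LM and PM medium for 96 genes. The values below are log2, with the 48 h difference less the 24 h difference first and the LM difference less the PM difference after it.

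HOX genes of the B cluster led the positive changes between times, with HOXB6 at 5.84, HOXB5 at 5.09 and HOXB4 at 4.85, beside the protocadherin PCDH8 at 5.74. LGR5, an R-spondin receptor, changed by 4.39, the receptor subunit GRIK3 by 4.08 and CA8 by 3.82. Negative changes were −9.34 for SLA, which was at 0 in MPS-24h, −9.33 for the retinoic acid enzyme CYP26A1, −3.80 for TMEM229A, −3.80 for IL17D and −3.18 for the channel TRPA1.

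Between media the positive differences were 4.9 for TGFB2, 4.81 for GATA3, 3.65 for SP8, 3.27 for FREM1, 2.96 for LGR5 and 2.89 for CA8. The negative ones were −8.82 for SLC39A2, which was at 0 in MPS-PM, −7.04 for URAD, which was at 0 in APS-LM, −4.47 for CDX2, −3.35 for TMEM229A and −3.17 for TRPA1. LGR5, CA8, TMEM229A and TRPA1 were flagged in both tests, which share the APS-LM and MPS-LM libraries.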

How the results depend on the processing

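The count of genes called between APS-LM and MPS-LM moved with most settings. From 679 it went to 450 with a log2 fold change of at least 1 required, 1421 with no filter, 1184 by DESeq2, 244 with only the 4 libraries compared and 329 with only the LM libraries, and from 153 to 917 when 1 library was left out. RLE scaling gave 684. Without MPS-LM replicate 1, 266 were higher and 430 lower, against 366 and 313. For APS-24h against MPS-24h the count of 524 went to 1144 with no filter, 809 by DESeq2 and 267 with only the libraries compared, and from 225 to 263 with 1 library left out. The difference between times went from 298 to 904 with no filter, 652 by DESeq2 and 155 with only the libraries compared, and from 118 to 379 with 1 library left out. The difference between media went from 96 to 642 with no filter, 240 by DESeq2 and 14 with only the libraries compared, and from 32 to 155 with 1 library left out. For APS-LM against APS-PM a log2 fold change of at least 1 left 2426 of 3906. The causes of these moves were not tested beyond the settings' own construction.

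Replicates of the conditions share only a number. Deviations from the condition means of same-numbered libraries correlated at 0.35 between APS-LM and MPS-LM, 0.47 between APS-24h and MPS-24h and 0.41 between APS-PM and MPS-PM, but from −0.34 to 0.69 over all pairs of conditions. With the replicate number as a block the counts were 1046 for the main comparison, with all 679 among them, 487 for the difference between times and 160 for that between media.

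Of 200 values of the 20 named genes in the main comparison, 187 kept direction and call, 13 kept direction only and none reversed. Among the other list members named as called, PAX9 lost its call with no filter, BMP5 with RLE scaling and none by DESeq2. In the fits on fewer libraries many were not called. With only the 4 libraries compared they included WNT5B, WNT2B, TGFBR3, BMPR2, CXCL12, SPRY1, SPRY2, TEK and TDGF1. Also among them were CCND1, CDX4, GSC, ZIC5, HOXA2, HOXA3, HOXA9, HOXA10 and HOXD13. With 2 libraries a group, a gene that was not called may still differ.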
